A study of Mus musculus with 2 samples.

Results

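The 40 genes described here encode the machinery of mitosis and of the G2 phase that leads into it: the mitotic cyclins and their kinase, the Polo, Aurora and Bub kinases, the spindle checkpoint, the kinetochore, the chromosomal passenger complex, the condensins, and proteins of the spindle and of cytokinesis. They were chosen by gene symbol, for what they are known to do, by a rule that uses none of their values, although earlier results of these libraries were known when the list was made. All 40 were found among the 21896 genes measured, and all 40 reached 1 FPKM in one library or both, the filter that left 11777 genes for comparison. FPKM is the number of fragments per kilobase of transcript, scaled to the mapped fragments of the library, so it can be compared between genes as well as between libraries.

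RNA was sequenced from the ventricular and subventricular zones (VZ-SVZ) dissected from cortical slices of C57/BL6 mouse embryos at E13.5, in 1 Rcor2fl/fl library and 1 Rcor2cko library. Both genotypes came from crosses of Rcor2fl/+ NesCre mice and both carry the floxed Rcor2 alleles. In Rcor2cko, Cre driven by Nestin removes the floxed exons. It acts mainly in the neural lineage, so other cells of the tissue, such as microglia, can keep Rcor2. Rcor2 encodes a co-repressor that works with the histone demethylase LSD1, and the study asked what its loss does to proliferation and neurogenesis in the cortex. The number of embryos behind each library is not given in the sources used here, and E15.5 was not analysed here. With 1 library per genotype there is no replicate and no test of genotype: every difference below is a difference between 2 libraries, and its interval covers counting error only.

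Cells of the VZ-SVZ divide at the ventricular surface as radial glia and, further out, as intermediate progenitors. Transcripts of mitotic genes build up in G2. A complex bound to a shared promoter element, the cell cycle genes homology region (CHR), activates these genes in G2 and represses them in resting cells. Some of their proteins are destroyed within one division. The summed level of these transcripts in a tissue therefore follows how many of its cells are cycling as well as how much each cell transcribes. In bulk RNA, fewer cells of a type and less RNA per cell cannot be told apart.

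The targeted gene was lower in the library labelled Rcor2cko, at 55.7 FPKM against 90.6 FPKM in Rcor2fl/fl, a log2 difference of -0.70 with a 95% interval of -0.79 to -0.63. That value sums all exons, including those outside the LoxP sites, and any RNA of cells without Cre. The paper reports that the floxed exons gave no RNA peaks in Rcor2cko at E13.5, which was not checked here. The scaling totals recovered from the FPKM values were 18840986 fragments in Rcor2fl/fl and 25481503 in Rcor2cko, and 3 fragments of a 2000-nt transcript would stand for 0.0882 and 0.0654 FPKM. The libraries differ in sex-linked RNA: Xist was at 176.7 FPKM in Rcor2fl/fl and 0.109 FPKM in Rcor2cko, and the Y-linked Ddx3y at 0.0239 and 8.10 FPKM. Genotype and embryo sex cannot be told apart in this pair. Of the 40 genes 0 are on the X chromosome, but that does not separate sex from genotype for them.

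The mitosis and G2/M genes were well expressed in both libraries, and most of them were slightly lower in Rcor2cko. Their levels ran from 5.82 FPKM for Espl1 to 65.1 FPKM for Top2a in Rcor2fl/fl, and from 4.68 FPKM for Pttg1 to 58.9 FPKM for Top2a in Rcor2cko. Summed over the 40 genes the level was 979.6 FPKM in Rcor2fl/fl and 890.6 FPKM in Rcor2cko, which is 0.314% and 0.291% of all FPKM in the library. Of the 40 genes, 31 were lower and 9 were higher in Rcor2cko, so 77.5% were lower, while 57.6% of the 11777 genes compared and 61.2% of the 8299 genes that reached 5 FPKM in both were lower by any amount. The median difference of the 40 genes on the log2 scale of FPKM plus 0.1 was -0.13 (a ratio of 0.912), beside a median of -0.03 over all genes compared and -0.04 over those that reached 5 FPKM in both.

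**Figure D1:**
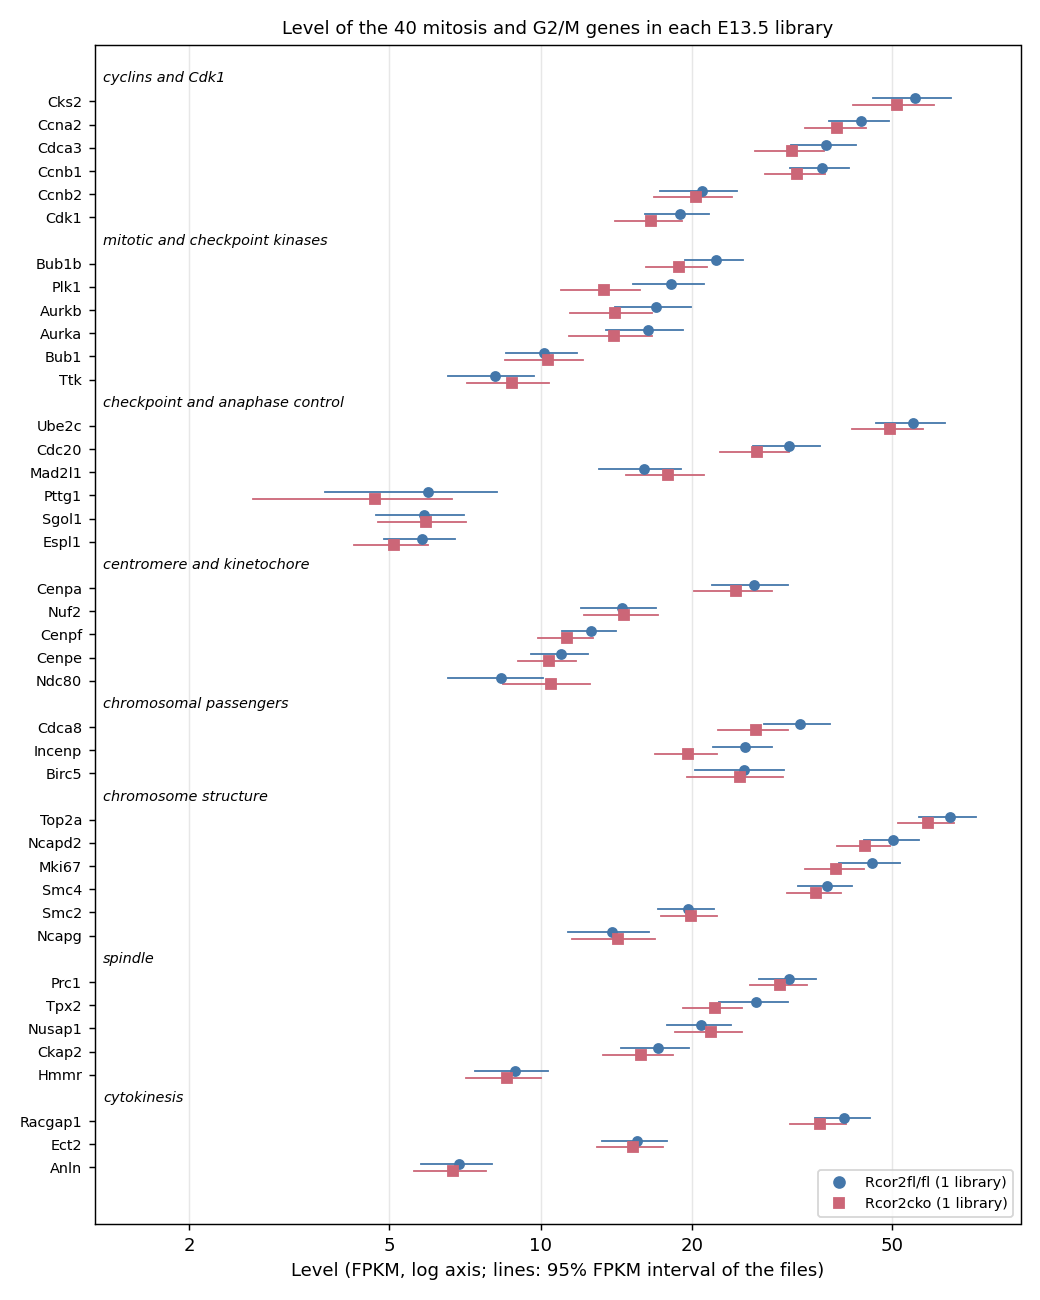
Level in FPKM (horizontal log axis) of each of the 40 genes in the Rcor2fl/fl library (blue circles) and the Rcor2cko library (red squares), grouped by role, with the 95% FPKM interval given in the files as a line. The points run from 4.68 FPKM (Pttg1, Rcor2cko) to 65.1 FPKM (Top2a, Rcor2fl/fl), and the intervals of the 2 libraries overlap for all 40 genes.

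The differences were small. None of the 40 genes was more than 1.5-fold lower and none more than 1.5-fold higher, where 1.76% and 3.79% of all genes compared were. Such differences were rarer at the level of these genes, of which 39 reached 5 FPKM in both libraries. Of the 8299 genes that did so, 42 were more than 1.5-fold lower and 61 more than 1.5-fold higher. The values ran from -0.44 for Plk1 to 0.33 for Ndc80, with an SD of 0.15 across the 40 genes, and the middle part of the list, between its quartiles, lay from -0.21 to -0.03. Genes that reached 5 FPKM in both libraries had an SD of 0.18 and quartiles of -0.13 and 0.05. The order of the levels was nearly the same in both libraries, with a Pearson correlation of 0.988 and a Spearman correlation of 0.981 between the log2 levels of the 40 genes. Those 40 points share the same pair of libraries, and the correlation is across genes.

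For 33 of the 40 genes, those with 1 transcript in the annotation used, whole fragments were recovered from the steps of the FPKM values. They had a median of 901 fragments in Rcor2fl/fl (315 to 8476) and 1037 in Rcor2cko (514 to 9743), and the half-width of their 95% exact interval had a median of 0.13 on the log2 scale. The interval lay below 0 for 19 of the 33 genes (57.6%), above 0 for 1 gene (3.03%), and included 0 for 13. Over all 9020 genes with fragments, 23.4% of intervals lay below 0 and 13.3% above it. Among the 5190 genes with as many fragments as these, 30.3% lay below 0 and 13.0% above it. Judged instead by the FPKM intervals given in the files, which are wider, the libraries overlapped for all 40 genes, and 3.47% of all genes compared did not overlap.

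**Figure D2:**
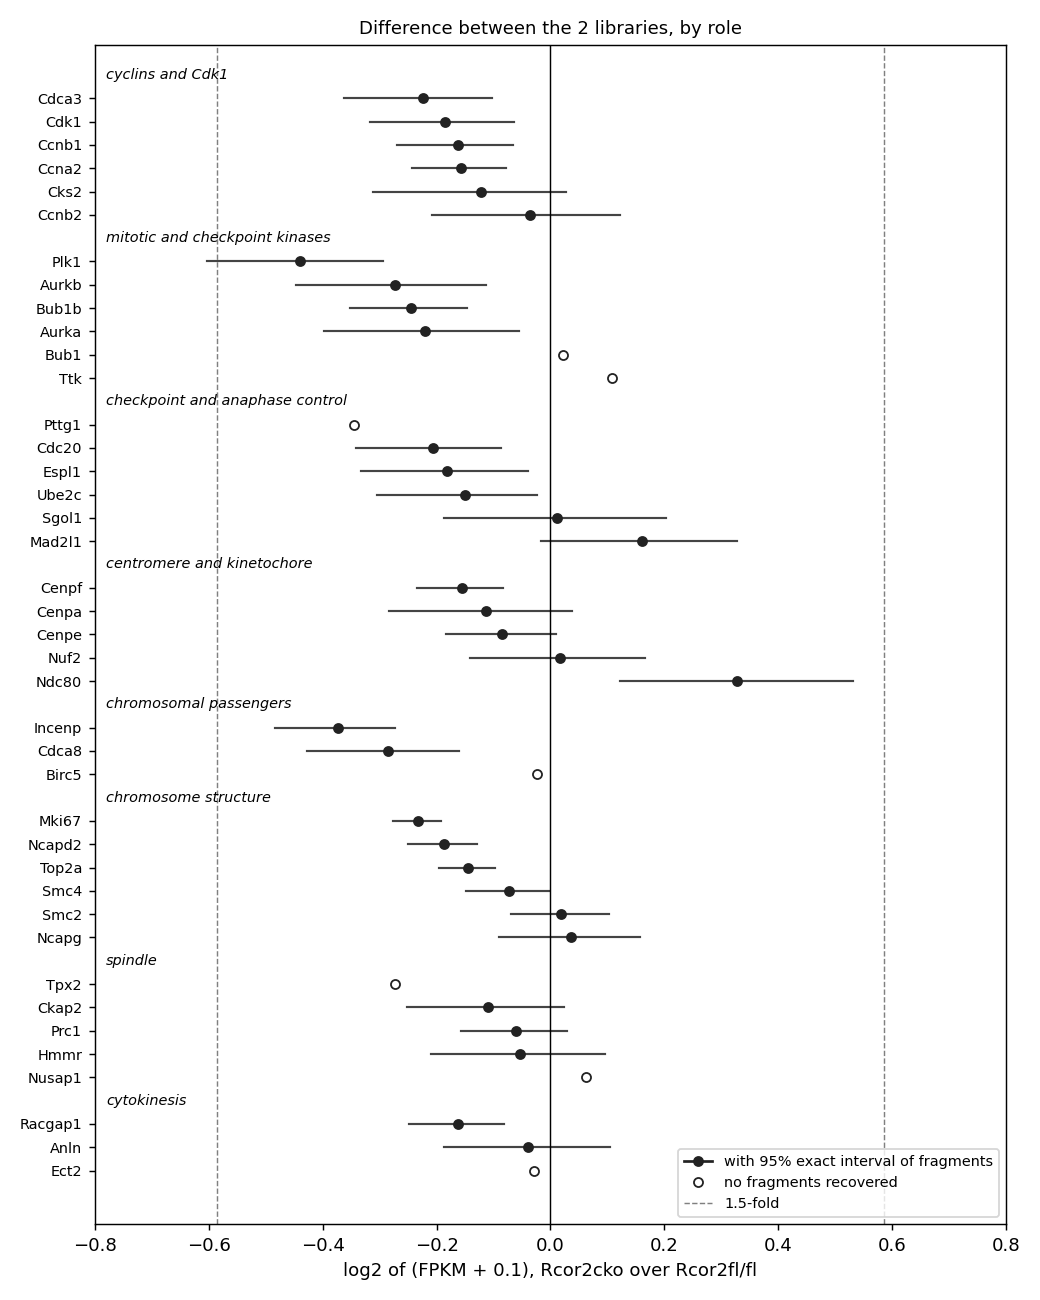
Log2 difference of FPKM plus 0.1, Rcor2cko over Rcor2fl/fl (horizontal axis), of each of the 40 genes by role. Filled points carry a 95% exact interval of recovered fragments (33 genes), open points have none (7 genes), and dashed lines mark 1.5-fold. Plk1 is lowest at -0.44, Ndc80 is highest at 0.33, and no point lies beyond a dashed line.

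The promoters of these genes carry letters that the choice of genes did not use. A table of RefSeq promoters on GRCm38.p6, each with 250 bases before and 50 bases after a transcription start, held 37 promoters of 35 of the 40 genes. Aurkb, Ccna2, Incenp, Smc4 and Tpx2 had no entry. The letters searched on both strands were those of the CHR, TTTGAA or TTTAAA, and of the CCAAT box, CCAAT, which the factor NF-Y binds. Both kinds of letters share a base in 1 of the 37 promoters. The promoters of 4 genes are printed, each 5′ to 3′ on the strand of its gene with the matched letters in capitals. Plk1 and Ndc80 are shown because they have the lowest and the highest difference between the libraries, Mki67 because it has the most fragments, and Ccnb2 as a gene with both kinds of letters and a difference near 0. On GRCm38.p6 they lie at chr7:122159185-122159484 on the plus strand for Plk1, and on the minus strand at chr17:71526808-71527107 for Ndc80, chr7:135716330-135716629 for Mki67 and chr9:70421505-70421804 for Ccnb2. This is not the build of the FPKM values, which are on mm9.
Plk1: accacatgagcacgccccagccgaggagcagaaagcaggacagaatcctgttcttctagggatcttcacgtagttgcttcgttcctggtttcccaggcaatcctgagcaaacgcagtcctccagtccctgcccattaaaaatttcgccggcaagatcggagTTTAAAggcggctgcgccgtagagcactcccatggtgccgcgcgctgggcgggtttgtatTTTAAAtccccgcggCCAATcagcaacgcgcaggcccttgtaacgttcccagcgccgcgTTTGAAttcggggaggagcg
Ndc80: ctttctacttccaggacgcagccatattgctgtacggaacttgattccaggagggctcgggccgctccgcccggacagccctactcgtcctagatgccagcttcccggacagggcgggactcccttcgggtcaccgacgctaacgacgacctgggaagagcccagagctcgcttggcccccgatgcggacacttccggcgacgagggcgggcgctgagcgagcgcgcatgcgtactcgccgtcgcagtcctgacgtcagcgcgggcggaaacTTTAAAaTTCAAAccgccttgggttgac
Mki67: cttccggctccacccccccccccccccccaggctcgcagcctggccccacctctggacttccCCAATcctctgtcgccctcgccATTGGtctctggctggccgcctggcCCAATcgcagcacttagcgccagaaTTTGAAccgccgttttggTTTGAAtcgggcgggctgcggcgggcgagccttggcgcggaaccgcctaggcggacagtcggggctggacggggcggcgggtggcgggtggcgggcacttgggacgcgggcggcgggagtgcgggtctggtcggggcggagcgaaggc
Ccnb2: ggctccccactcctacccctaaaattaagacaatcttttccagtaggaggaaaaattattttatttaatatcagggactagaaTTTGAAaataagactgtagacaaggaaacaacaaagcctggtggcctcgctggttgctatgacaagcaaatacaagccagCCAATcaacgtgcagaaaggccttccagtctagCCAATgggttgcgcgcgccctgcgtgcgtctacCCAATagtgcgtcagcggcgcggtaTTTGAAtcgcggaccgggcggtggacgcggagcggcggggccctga

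The Plk1 promoter holds 3 matches to the CHR letters and 1 to CCAAT. Those of Mki67 and Ccnb2 hold 2 and 3 matches, and that of Ndc80 holds 2 matches to the CHR letters, close together and after the start, and none to CCAAT. CHR letters were found in 30 of the 37 promoters (81.1%), CCAAT in 30 (81.1%) and both in 27 (73.0%). Among 10839 promoters of the genes compared, the shares were 18.5%, 38.2% and 7.44%, and among all 32851 promoters given they were 27.6%, 37.4% and 10.7%. The position of the matches also differed. CHR letters lay within 50 bases of the start in 70.3% of the 37 promoters and 4.79% of those of the genes compared, and CCAAT lay in the 100 bases before the start in 67.6% and 22.3%. The centres of the 44 CHR matches had a median position of -13.5 relative to the start, and those of the 71 CCAAT matches a median of -66. A match of letters is not a bound site, and no binding was analysed here.

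**Figure D3:**
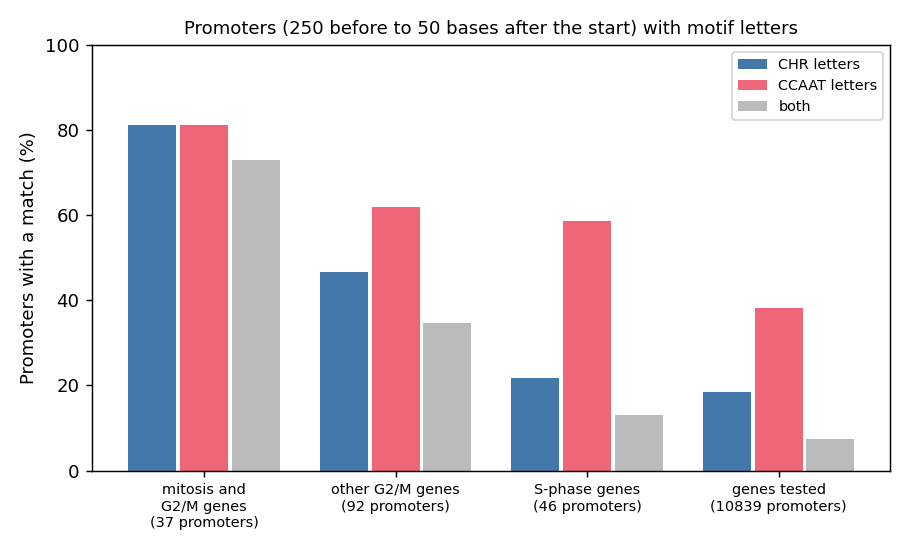
Share of promoters in percent (vertical axis, from 0) with CHR letters (blue), CCAAT letters (red) or both (grey), in the mitosis and G2/M genes, the other G2/M genes, the S-phase genes and all genes compared. CHR letters are in 81.1%, 46.7%, 21.7% and 18.5% of the promoters, in that order.

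The 28 genes with CHR letters in a promoter had a median difference of -0.15 between the libraries, and the 7 without them, Bub1, Cks2, Mad2l1, Nuf2, Nusap1, Pttg1 and Sgol1, a median of 0.02. Those 7 were spread from -0.34 for Pttg1 to 0.16 for Mad2l1, and the values of Ndc80, the highest of the list, and Plk1, the lowest, both belong to promoters with CHR letters. The split by CCAAT gave the same medians, -0.15 for 28 genes with it and 0.02 for 7 without, and Mad2l1, Nuf2, Nusap1 and Pttg1 lack both kinds of letters. As 25 genes have both kinds of letters, the 2 splits hold mostly the same genes and cannot tell the CHR from CCAAT. Both describe 35 genes in 2 libraries, and a link of either kind of letters to the differences was not tested.

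The mitotic cyclins, Cdk1 and their partners were all lower in Rcor2cko, 6 of 6, with a median of -0.16. Of the 8299 genes that reached 5 FPKM in both libraries, 61.2% were lower. That share stands beside the counts of the later roles too. From here on, a pair of levels gives Rcor2fl/fl first and Rcor2cko second, and a range in brackets is the 95% interval of the log2 difference by fragments. Ccnb1 (cyclin B1), the cyclin that takes Cdk1 into mitosis, was at 36.2 FPKM in Rcor2fl/fl and 32.3 FPKM in Rcor2cko, and its interval ran from -0.27 to -0.07. Cdk1 itself was at 18.9 and 16.6 FPKM (-0.32 to -0.06). Ccna2 (cyclin A2), which acts in S phase and G2, was at 43.4 and 38.9 FPKM (-0.24 to -0.08). Cdca3, which helps to destroy the Cdk1 inhibitor Wee1 at mitotic entry, was at 37.0 and 31.6 FPKM (-0.36 to -0.10). These 4 intervals lie below 0. For Ccnb2 (cyclin B2) the levels of 20.9 and 20.4 FPKM gave an interval of -0.21 to 0.12, and for Cks2, a small subunit of the Cdk1 complex, 55.6 and 51.1 FPKM gave -0.31 to 0.03, and both include 0. The ratio of Ccnb1 to Ccnb2 was 1.73 in Rcor2fl/fl and 1.58 in Rcor2cko, a difference of -0.12 by fragments with an interval of -0.32 to 0.07.

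The kinases of mitosis held the lowest value of the 40 genes. Plk1, the Polo-like kinase that drives mitotic entry, centrosome maturation and cytokinesis (mm9 chr7:129302951-129313389, plus strand), was at 18.2 FPKM from 688 fragments in Rcor2fl/fl and 13.4 FPKM from 682 fragments in Rcor2cko. The log2 difference of -0.44 (a change of -26.4% in FPKM) had an interval of -0.60 to -0.29, which takes in a 1.5-fold fall. It is the one interval of the 33 to do so. Among the 40 genes, Plk1 was in place 23 by level in Rcor2fl/fl and in place 30 in Rcor2cko, counted from the highest. The other kinases with fragments were also lower. Aurkb, the enzyme of the chromosomal passenger complex, was at 17.0 and 14.04 FPKM (-0.45 to -0.11), and Aurka, the kinase of centrosomes and spindle poles, at 16.3 and 14.03 FPKM (-0.40 to -0.06). Bub1b (BubR1), a checkpoint protein of the kinetochore, was at 22.3 and 18.8 FPKM (-0.35 to -0.15). Its relative Bub1 had levels of 10.2 and 10.3 FPKM, and Ttk (Mps1), which starts the checkpoint signal, 8.13 and 8.77 FPKM. No fragments were recovered for these last 2 genes, which have several transcripts in the Rcor2fl/fl table.

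Among the genes of the spindle checkpoint and of anaphase, 4 of 6 were lower, with a median of -0.17. The share over genes that reached 5 FPKM in both was 61.2%. Cdc20 and Ube2c both serve the anaphase promoting complex, as its activator and as its ubiquitin-conjugating enzyme. Cdc20 was at 31.2 and 26.998 FPKM (-0.34 to -0.09) and Ube2c at 55.0 and 49.6 FPKM (-0.30 to -0.02). Espl1 (separase), the protease that cuts cohesin at anaphase, was at 5.82 and 5.12 FPKM (-0.33 to -0.04). Pttg1 (securin), its inhibitor, was at 5.97 and 4.68 FPKM, a log2 difference of -0.34 with no interval, and it was the one gene of the 40 under 5 FPKM in a library. Mad2l1 (Mad2), the checkpoint protein that holds Cdc20 inactive, went the other way, with 16.1 and 17.9 FPKM, but its interval of -0.02 to 0.33 includes 0. Sgol1 (shugoshin), which protects cohesin at centromeres, was at 5.87 and 5.92 FPKM (-0.19 to 0.20). The ratio of Mad2l1 to Cdc20 was 0.515 in Rcor2fl/fl and 0.665 in Rcor2cko, a log2 difference of 0.37 with an interval of 0.16 to 0.58. That pair and the other pairs of partners were chosen with these values known.

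The kinetochore held the highest value. Ndc80, a subunit of the complex that ties kinetochores to microtubules (mm9 chr17:71845440-71876197, minus strand), was at 8.33 FPKM from 315 fragments in Rcor2fl/fl and 10.5 FPKM from 534 fragments in Rcor2cko, which is 25.8% higher. Its interval, 0.12 to 0.53, was the one interval of the 33 that lay above 0. Nuf2, which binds Ndc80 directly in the same complex, did not share this difference: it was at 14.5 and 14.7 FPKM (-0.14 to 0.17). The ratio of Ndc80 to Nuf2 was 0.575 in Rcor2fl/fl and 0.714 in Rcor2cko, a log2 difference of 0.31 (0.06 to 0.56). The other kinetochore genes were lower. The large coiled-coil protein Cenpf was at 12.6 and 11.3 FPKM (-0.23 to -0.08), and the kinetochore motor Cenpe at 11.0 and 10.4 FPKM (-0.18 to 0.01). Cenpa, the histone H3 variant that marks centromeres, was at 26.5 and 24.5 FPKM (-0.28 to 0.04). Of these 3 intervals, that of Cenpf alone excludes 0.

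The chromosomal passenger complex corrects faulty attachments and later directs cytokinesis, and its 3 genes in the list besides Aurkb had the lowest median of any role, -0.29. Incenp, its scaffold (mm9 chr19:9946787-9974023, minus strand), was at 25.4 FPKM from 1449 fragments in Rcor2fl/fl and 19.6 FPKM from 1508 fragments in Rcor2cko, with an interval of -0.48 to -0.27. Cdca8 (borealin) was at 32.7 and 26.8 FPKM (-0.43 to -0.16). Birc5 (survivin), the third subunit, was close to level, at 25.4 and 24.9 FPKM. Incenp and Birc5 thus stood at a ratio of 1.003 in Rcor2fl/fl and 0.787 in Rcor2cko. Birc5 has 2 transcripts in the Rcor2fl/fl table, of 972 and 3416 nt, with 88.2% and 11.8% of its level, and the Rcor2cko table gives 1 value for the gene, so its difference has no interval.

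The genes of chromosome structure had the highest summed level of the roles, 231 FPKM in Rcor2fl/fl and 211 FPKM in Rcor2cko. Of these, 4 of 6 were lower, beside 61.2% of genes that reached 5 FPKM in both. Top2a, the topoisomerase that untangles sister chromatids, was at 65.1 and 58.9 FPKM, with 6158 and 7522 fragments (-0.20 to -0.10). Mki67 (Ki67), the coat of mitotic chromosomes and the common stain for cycling cells (mm9 chr7:142881471-142908062, minus strand), was at 45.5 and 38.7 FPKM, with 8476 and 9743 fragments (-0.28 to -0.19). Both intervals lie below 0 and well inside 1.5-fold. The condensins, which compact chromosomes, did not move alike. Ncapd2, a subunit of condensin I, was at 50.3 and 44.2 FPKM (-0.25 to -0.13), and Ncapg, a second subunit of the same complex, at 13.9 and 14.2 FPKM (-0.09 to 0.16). The ratio of Ncapd2 to Ncapg was 3.62 in Rcor2fl/fl and 3.10 in Rcor2cko, a log2 difference of -0.22 (-0.36 to -0.09). The ATPases Smc2 and Smc4 pair with each other in both condensins. Smc2 was at 19.6 and 19.9 FPKM (-0.07 to 0.10) and Smc4 at 37.1 and 35.3 FPKM (-0.15 to -0.0031), and the difference between them, 0.09, has an interval of -0.02 to 0.20.

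The genes of the spindle and of cytokinesis had the medians nearest to 0 of the roles, -0.06 and -0.04. Tpx2, the spindle protein that activates Aurka, was the lowest of them, at 26.8 and 22.2 FPKM (-0.27), with 5 transcripts in the Rcor2fl/fl table and no interval. The ratio of Aurka to Tpx2 was 0.609 and 0.632. Prc1, which bundles microtubules of the central spindle, was at 31.3 and 29.97 FPKM (-0.16 to 0.03), and Ckap2, a microtubule-binding protein of the spindle, at 17.1 and 15.8 FPKM (-0.25 to 0.02). Hmmr, also of the spindle, was at 8.89 and 8.56 FPKM (-0.21 to 0.10), and Nusap1, which bundles microtubules near chromosomes, at 20.9 and 21.8 FPKM. None of the 3 intervals in this group excludes 0. In cytokinesis, Racgap1, a subunit of centralspindlin, was at 40.2 and 35.9 FPKM (-0.25 to -0.08). Ect2, the exchange factor that Racgap1 recruits, was at 15.5 and 15.2 FPKM, and Anln (anillin), a scaffold of the cleavage furrow, at 6.89 and 6.71 FPKM (-0.19 to 0.10).

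The differences were set beside the level and the length of the transcripts. Across the 40 genes the log2 difference had a Pearson r of -0.26 and a Spearman rank correlation of -0.30 with the log2 mean FPKM, and across the 33 genes with 1 transcript an r of 0.009 and a rank correlation of 0.095 with the log2 length. These are descriptions across genes of 1 pair of libraries. Over all 8299 genes that reached 5 FPKM in both, r with the level was -0.0079.

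Reads of some of these genes can also come from elsewhere in the genome. For 11 of the 40, at least 20% of the transcript aligned at another place of mm9 with at least 90% identity. The nearest to complete is that of Plk1, of which 97.4% aligned on chromosome 5 at 93.5% identity. Ccnb1 and Cks2 each aligned at 5 other places, and for Ndc80 26.8% of the transcript aligned on chromosome 5 at 93.7% identity. For Sgol1, 59.5% aligned on the X chromosome at 93.1% identity. A further limit is overlap with another gene, which 7 of the 40 have. It takes more than 10% of the exon bases for 3, all with a gene on the opposite strand: Ube2c shares 22.8% of its exon bases with Tnnc2, Ccna2 shares 14.6% with Exosc9 and Ncapg shares 13.3% with Lcorl. The library kit keeps the strand, but whether the counting used it, and how reads with several places were shared out, is not given in the sources used here. Without the 13 genes that have such a second alignment or an overlap above 10%, 22 of 27 were lower (81.5%), with a median of -0.14.

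Other genes of the same phase of the cycle were set beside the 40. Of 111 further G2/M genes, 106 were measured and all 106 were compared. In Rcor2cko 77 were lower (72.6%, beside 57.6% of all genes compared) and 29 higher. None was past 1.5-fold in either direction, and the median was -0.07. Their summed level was 2138 FPKM in Rcor2fl/fl and 2047 FPKM in Rcor2cko. Of 83 with fragments, 17 intervals lay below 0 (20.5%, beside 23.4% of all genes) and 3 above (3.61%, beside 13.3%). By role, the 29 further genes of the spindle and cytokinesis had a median of -0.13, with 26 lower, and the 19 of mitotic entry and its transcription factors -0.12, with 17 lower. The medians of the other roles were close to that of all genes: -0.03 for 26 genes of the kinetochore and centromere, -0.03 for 19 of the checkpoint and the anaphase promoting complex, and -0.01 for 13 of cohesin and condensin. The order of the roles was thus not the same as among the 40, where the spindle and cytokinesis genes had medians of -0.06 and -0.04.

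Among the further genes with a mean of at least 5 FPKM, the lowest values belonged to Cenpm, a protein of the inner kinetochore, at 6.997 and 5.150 FPKM (-0.43), and to the centrosomal kinase Nek2, at 7.76 and 5.76 FPKM (-0.42, interval -0.63 to -0.24). Kif18b, a kinesin that shortens astral microtubules, followed at 7.80 and 5.97 FPKM (-0.38, interval -0.58 to -0.20). The highest belonged to Lin9, a core subunit of the complexes that bind the CHR, at 6.52 and 8.07 FPKM (0.30). Of the inner kinetochore proteins Cenph and Cenpk, Cenph was at 7.26 and 8.66 FPKM (0.25), with an interval of -0.06 to 0.56 that includes 0, and Cenpk at 6.85 and 7.71 FPKM (0.17). All 6 of these genes were at most 8.66 FPKM in either library.

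Genes of S phase, which are transcribed earlier in the cycle under E2F factors, lay between. All 50 were compared, and 36 were lower (72.0%, beside 57.6% of all genes compared) and 14 higher. None was past 1.5-fold, and the median was -0.09. The sliding clamp Pcna, the most abundant of them, was level at 135.0 and 134.8 FPKM. Mcm7, a subunit of the replicative helicase, was at 72.7 and 68.5 FPKM (-0.09), and Rrm2, a subunit of ribonucleotide reductase, at 40.4 and 38.0 FPKM (-0.09). Of the 38 S-phase genes with fragments, 12 intervals lay below 0 (31.6%) and 0 above. Over all genes with fragments the shares were 23.4% and 13.3%. Among genes with as many fragments as the 33 mitosis and G2/M genes they were 30.3% and 13.0%. Whether the 40 genes differ from the S-phase genes or from the other G2/M genes was not tested, since there is 1 library per genotype.

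**Figure D4:**
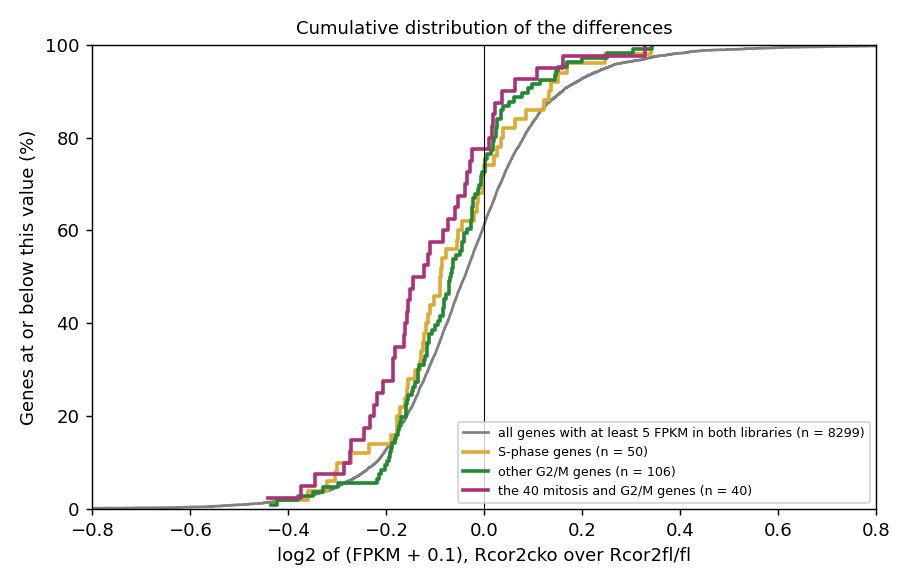
Cumulative share of genes in percent (vertical axis) at or below a given log2 difference, Rcor2cko over Rcor2fl/fl (horizontal axis), for the 40 mitosis and G2/M genes, 106 other G2/M genes, 50 S-phase genes and all 8299 genes that reached 5 FPKM in both. The curve of the 40 genes lies to the left, with a median of -0.13 against -0.07, -0.09 and -0.04.

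Markers of the cell types that the dissection could hold also differed between the libraries, and their part in the differences of the mitotic genes was not tested. Of 12 radial glia markers 7 were lower (58.3%, beside 57.6% of all genes compared), with a median of -0.08. Their values ran from -1.44 to 0.53, and 1 of them was more than 1.5-fold lower. Their summed level was 932 FPKM in Rcor2fl/fl and 1074 FPKM in Rcor2cko. Fabp7 alone was at 372.4 and 539.1 FPKM, Vim at 307.5 and 302.9 FPKM, and Nes, which encodes Nestin, at 67.3 and 54.7 FPKM. Of 9 markers of intermediate progenitors 6 were lower (66.7%), with a median of -0.11 and sums of 391 and 372 FPKM. They ran from -0.93 to 0.14, and 1 was more than 1.5-fold lower. Of 11 markers of postmitotic neurons 6 were lower (54.5%), with a median of -0.02 and sums of 1289 and 1230 FPKM. They ran from -0.50 to 0.37. Markers of radial glia and of intermediate progenitors, the cells that divide in this tissue, were thus present in both libraries.

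Markers of further cell types were read in the same way. The paper reports Dlx2-positive cells in the Rcor2cko neocortex at E15.5. Bulk RNA cannot tell ventral marker RNA made within the dorsal VZ-SVZ from that of cells outside it, and its source was not tested. The 9 ventral progenitor markers summed to 8.38 and 33.2 FPKM, and all 7 that passed the filter were higher in Rcor2cko. Gsx2, Isl1, Six3, Olig1 and Olig2 passed it only through Rcor2cko, so the filter fixed their direction. Dlx1 (4.87 and 13.9 FPKM) and Dlx2 (2.96 and 11.2 FPKM) passed it in both libraries. Gsx2, Isl1 and Six3 were listed at 0 in Rcor2fl/fl and at 1.64, 2.23 and 1.43 FPKM in Rcor2cko. Gsx1 was listed at 0 and at 0.0250 FPKM, below the 0.0654 FPKM of 3 fragments of a 2000-nt transcript. The choroid plexus list summed to 1.04 and 62.0 FPKM. Nearly all of the Rcor2cko sum was Ttr, listed at 0 in Rcor2fl/fl and at 57.8 FPKM in Rcor2cko. Msx1 was listed at 0 in Rcor2fl/fl and at 0.0454 FPKM in Rcor2cko, also below the level of 3 fragments. Microglia markers summed to 16.4 and 25.6 FPKM, with all 7 compared of 8 higher, and endothelial markers to 34.2 and 36.5 FPKM, with 7 of 8 higher. Of the 11777 genes compared, 4992 were higher. Meningeal and pericyte markers summed to 14.7 and 19.3 FPKM, and all 3 compared of 8, Rgs5, Pdgfrb and Kcnj8, were higher. Of those under the filter, Dcn was lower, at 0.533 and 0.0985 FPKM, and Col1a1, Col1a2, Col3a1 and Lum were higher. Lum was listed at 0 in Rcor2fl/fl and at 0.0419 FPKM in Rcor2cko, below the level of 3 fragments. Erythroid markers summed to 242 and 178 FPKM, with 4 of 5 compared lower (80%, beside 57.6% of all genes compared). The mitotic RNA of any of these cells that divide is part of both values.

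The median of the 40 genes was below 0 under each scaling tried, but its size depended on the scaling. With the libraries scaled to the same median, total or upper quartile, or quantile-normalized, the median of all genes lay between -0.01 and 0.01, and that of the 40 genes between -0.11 and -0.09, with 27 to 31 of 40 lower. In each of the 13 alternatives the 40 genes had the lowest median of the 4 sets compared. Their median lay 0.09 to 0.13 below that of all genes.

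**Figure D5:**
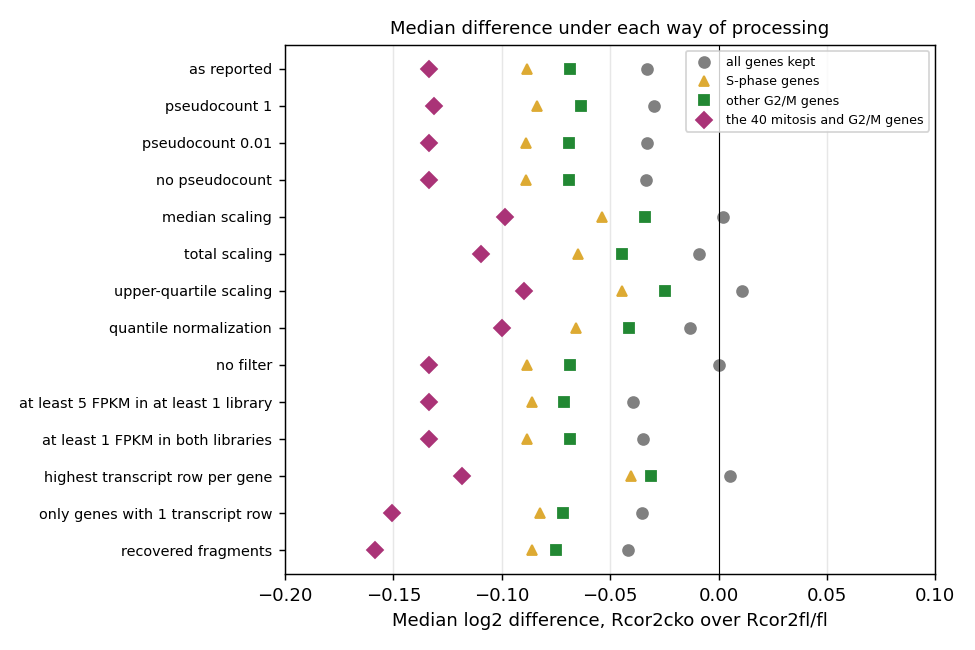
Median log2 difference, Rcor2cko over Rcor2fl/fl (horizontal axis), of the 40 mitosis and G2/M genes, the other G2/M genes, the S-phase genes and all genes kept, under each way of processing (rows). The median of the 40 genes lies between -0.16 and -0.09 in every row, left of the other sets.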

How the data were processed

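The authors mapped reads of stranded mRNA libraries with TopHat to mm9 and deposited FPKM values with 95% FPKM bounds. The submitters' processing notes name TopHat 1.3.3 and Cufflinks 1.2.0. Values were given in 27641 transcript rows for Rcor2fl/fl and 21896 gene rows for Rcor2cko. Transcript rows were summed per gene here, half-widths as the root of summed squares. Genes that reached 1 FPKM in one library or both were compared by log2 of FPKM plus 0.1.

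Fragments of 16950 genes whose 1 transcript had 600 nt or more were recovered from FPKM steps after an offset of 194.1 and 200.9 nt. Of values up to 100 fragments, 99.3% of 4400 and 99.5% of 4328 were within 0.1 of a whole number. Intervals are 95% Clopper-Pearson, for counting error only; those of pairs of genes use a normal approximation. The steps were tested on simulated data. No p-value was computed, and no count test was run, as there is 1 library per genotype.

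The 40 genes and all lists were chosen with earlier results of these data known. All 40 are named; of the other G2/M genes, the 3 highest and 3 lowest with a mean of at least 5 FPKM; of other lists, up to 3 by mean level. Markers listed at 0, Olig1, Olig2, Dcn and the collagen genes were named after their values were seen. Positions are from GENCODE vM1 on NCBIM37 (mm9), promoters from RefSeq. Proteins were not analysed here. Alternatives were 3 pseudocount settings, 4 scalings, 3 filters, 3 treatments of transcripts and 2 thresholds, and 1 alternative, leaving out genes with near copies or an exon overlap above 10%, was added after the data were seen. Software was minimap2 2.31-r1302, scipy 1.17.1, pandas 2.3.3, numpy 2.4.6 and matplotlib 3.10.9 under Python 3.11.15.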

Additional observations from a re-analysis of the deposited data

How the results depend on the processing

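Under the 13 alternatives for pseudocount, scaling, filter and transcripts, the median of the 40 genes kept its direction, between -0.16 and -0.09. Of 506 values of single genes recomputed, 501 stayed within the half-width of the gene's interval. That interval was by fragments, or by the FPKM bounds of Rcor2fl/fl where no fragments were recovered. Many of these values could not move. All 40 genes passed each of the 3 filters, which leave a gene's value and the median of the 40 unchanged. The settings that choose among transcript rows leave genes with 1 transcript unchanged. The count of 501 includes these fixed values. Taking the highest transcript row per gene, which lowers Rcor2fl/fl values only, put 3 genes more than 1.5-fold higher in Rcor2cko, where none was as reported: Tpx2 at 1.04, Bub1 at 0.95 and Ect2 at 0.59. Mki67 moved to -0.19 with upper-quartile scaling and with quantile normalization. Scaling also moves the split of calls. With upper-quartile scaling 67.5% of the 40 genes and 47.6% of all genes were lower, and with median scaling 72.5% and 49.6%. In every setting that gave a value, 35 of the 40 genes had one sign. No paired analysis was possible because each genotype has a single library, and for the same reason no library could be left out. Depth limits single genes: an interval half-width of 0.20 for the gene with the fewest fragments leaves differences below about that size undetectable.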
